A study of Drosophila melanogaster with 40 samples.

Results

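The Cpr genes of Drosophila melanogaster, the largest family of insect cuticle proteins, were examined in heads of 10-day-old males. Members were all genes whose symbol begins with Cpr followed by a digit, 70 of the 17558 genes in the count table. RNA had been extracted from pools of 13 to 21 heads, sieved away from the bodies of frozen Oregon Red wild-type (WT) flies, and poly-A RNA was sequenced. The labels and methods give whole heads, while the study's Results text speaks of brains, which would lack the head cuticle and the corneal lens. There were 40 pools in 6 groups, and chronic DMSO replicate 7 was left out, which leaves 39. The groups are chronic 2-AAPA (n = 7), acute 2-AAPA (n = 6), chronic MitoQ (n = 6), acute MitoQ (n = 7), chronic DMSO (n = 6 here) and acute DMSO (n = 7). 2-AAPA, an inhibitor of glutathione reductase and thioredoxin reductase, was given at 10 µM. MitoQ, a ubiquinone antioxidant directed to mitochondria, was given at 100 µM. The vehicle was 0.2% DMSO per the labels, which name it for both drugs, while the study's supplement lists ethanol as the solvent of MitoQ, and there is no ethanol group. Chronic flies were kept for 10 days on instant medium that held drug or vehicle. Acute flies received it for 24 h before sampling at the same age, after 9 days on cornmeal-molasses food, so the length of exposure and the food of the earlier days cannot be told apart.

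The insect cuticle is a layered extracellular matrix of chitin fibres and proteins, secreted by epidermal cells. Cpr proteins carry the Rebers and Riddiford domain, which binds chitin, and each gene is named for the band of the polytene chromosomes where it lies. Most cuticle is laid down before and around each moult, and the adult exoskeleton is completed shortly after the fly emerges. In the head, cuticle also covers the antennae and mouthparts and forms the corneal lens of each facet of the eye. Cpr66D and Cpr72Ec are known as proteins of that lens, beside retinin and Crys, whose product also carries the domain.

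Of the 70 genes, 31 passed the filter on low counts and were counted as expressed in heads, and 39 did not. Levels are given in CPM, counts scaled to the library total scaled by TMM factors, and levels of different genes are compared only per kilobase (kb) of exons. The median of the 39 samples was at least 100 CPM per kb for 3 genes, between 10 and 100 for 7, between 1 and 10 for 11, and below 1 for 49. Of those 49 low genes, 10 passed the filter. The filter works on counts, so at the same level per kb a long gene passes more easily. Cpr49Ac (2117 bases) passed at 0.143 CPM per kb, and Cpr67Fb (457 bases) did not at 0.244. Among the 39 genes that did not pass, the highest median was 0.205 CPM and the highest single count was 28, both in Cpr11A. Of these, 14 genes had a median of 0 and 1, Cpr97Ea, had a count in every sample. One count was worth about 0.0368 CPM at the mean depth, so lower levels are not resolved within a single sample. The genes with a median of 0 still had counts in some samples.

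**Figure D1:**
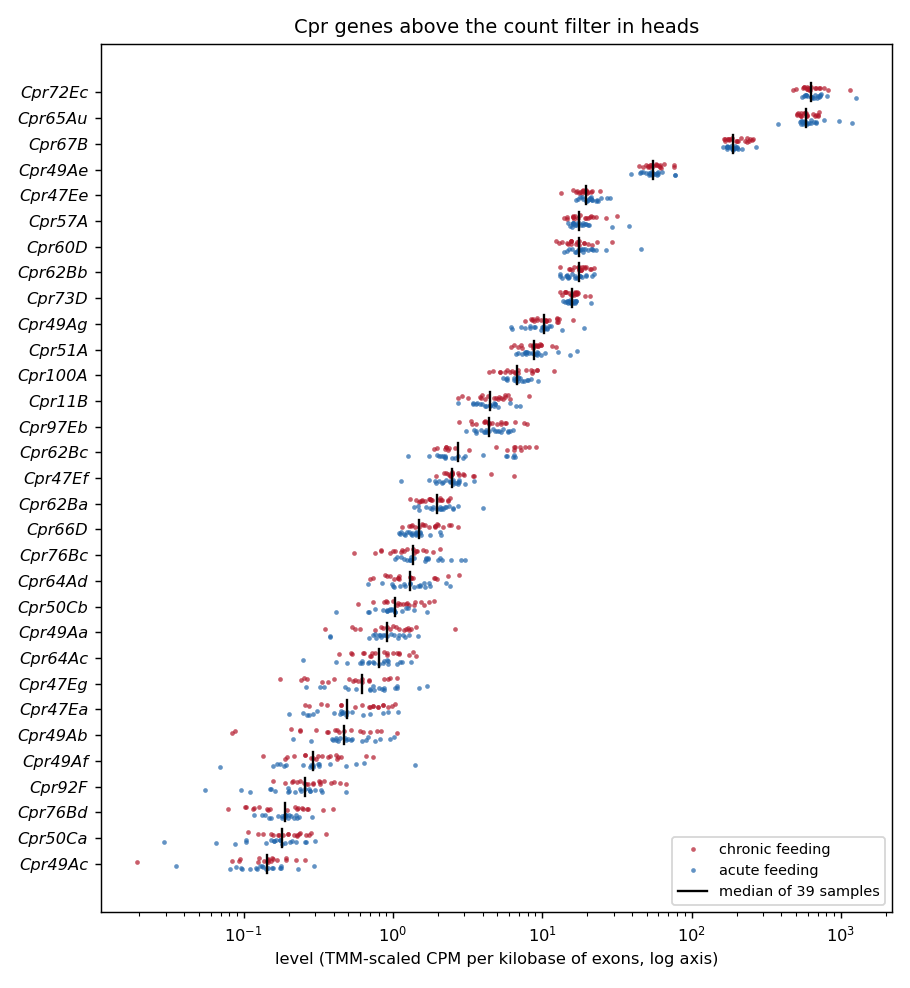
Levels of the 31 expressed Cpr genes in CPM per kb of exons on a log axis, with 1 point per sample (red for chronic, blue for acute feeding; values of 0 are not drawn) and a black line at the median of the 39 samples. The genes run from 634 CPM per kb for Cpr72Ec to 0.143 for Cpr49Ac, and the chronic and acute points of each gene overlap.

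Cpr72Ec, a lens protein gene, had the highest level per length, with a median of 634 CPM per kb and a range of 478 to 1272 over the 39 samples. Cpr65Au followed at 582 CPM per kb (382 to 1189). Their ranges overlapped, and Cpr72Ec was the higher of this pair in 28 of 39 samples. Cpr67B was next at 191 CPM per kb (161 to 269) then Cpr49Ae at 55.5 (39.1 to 77.5). From Cpr65Au to Cpr67B, from Cpr67B to Cpr49Ae and from Cpr49Ae to Cpr47Ee the ranges did not overlap, so this order held in all 39 samples. Below that the order was loose. Medians were 19.7 for Cpr47Ee, 17.7 for Cpr57A, 17.6 for Cpr60D, 17.5 for Cpr62Bb and 15.7 for Cpr73D, all in CPM per kb, and the range of each overlapped that of the next. Cpr49Ag followed at 10.2 CPM per kb and lay below Cpr73D in all 39 samples, although the ranges overlapped. The other lens member, Cpr66D, was at 1.49 CPM per kb, far below Cpr72Ec. Of the lens genes outside the family, retinin was at 394 CPM per kb and Crys at 3.60.

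A few genes carried most of the family's RNA. The 3 highest genes made up 80.0 to 88.5% of the summed Cpr CPM of a sample, and Cpr72Ec alone 45.0 to 64.9%. The sum had a median of 1713 CPM and ranged from 1480 to 3106 CPM. By group its medians lay close together, at 1630 CPM in chronic 2-AAPA, 1659 in acute 2-AAPA, 1698 in chronic MitoQ, 1769 in acute MitoQ, 1679 in chronic DMSO and 1652 in acute DMSO. The highest sums were in acute DMSO replicate 5 (3106 CPM), whose TMM factor of 0.803 was the lowest of the 39, and in chronic 2-AAPA replicate 5 (2561 CPM).

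The samples were heads by their markers. The 6 photoreceptor markers, which include ninaE, the major rhodopsin, summed to 62360 to 80320 CPM, and 5 neuronal markers to 1429 to 3581 CPM. Markers of the accessory gland, testis and gut summed to no more than 0.975, 0.842 and 0.865 CPM in the 39 samples, and to 651, 996 and 196 CPM in chronic DMSO replicate 7, the pool left out. Total counts were 24318573 to 30104079 per sample. In these bulk pools, fewer cells of a type and less RNA per cell cannot be told apart.

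**Figure D2:**
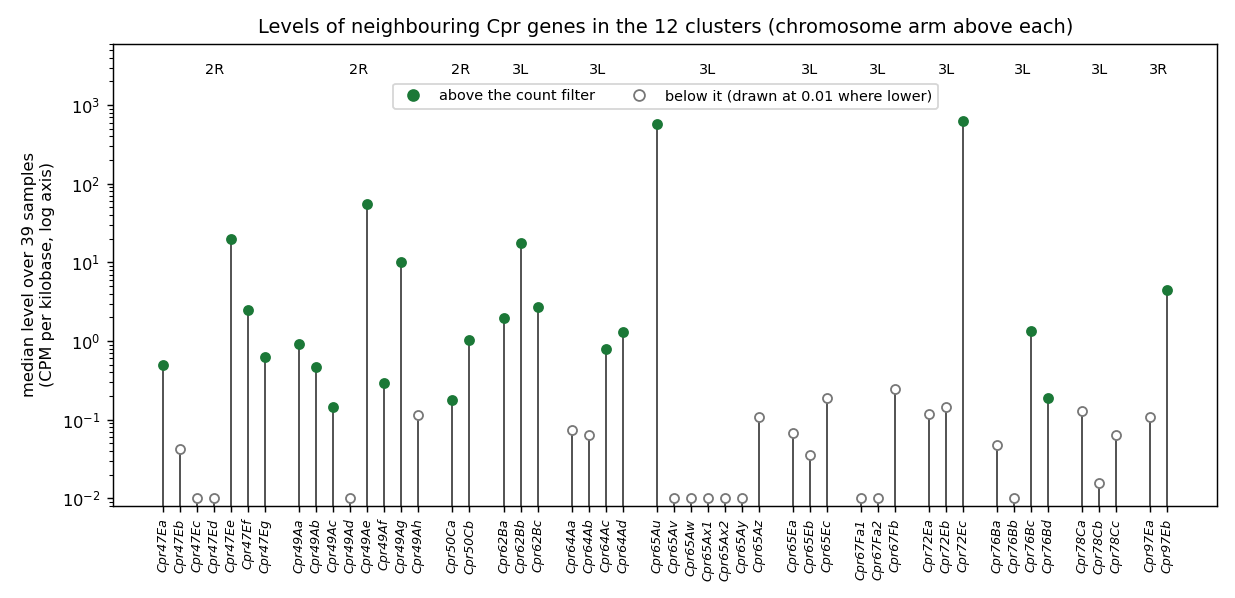
Median level over the 39 samples (CPM per kb, log axis) of the 49 Cpr genes that lie in 12 clusters, in gene order within each cluster, with filled circles for genes that passed the count filter and open circles for those that did not. Genes that passed and genes that did not stand side by side, as in 65A, where Cpr65Au is at 582 CPM per kb and the other 6 genes did not pass.

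Neighbouring members differed widely in level. With genes joined where the gap between them was at most 20000 bases, 49 of the 70 lay in 12 clusters, and 7 of these clusters held both genes that passed and genes that did not. On chromosome arm 3L, the 7 Cpr genes of 65A spanned positions 6131242 to 6161589 (BDGP6), and only Cpr65Au passed the filter. In 72E, Cpr72Ec lay at 3L 16365894 to 16367340 on the minus strand as a single exon. It was at 634 CPM per kb, against 0.144 for Cpr72Eb and 0.119 for Cpr72Ea, neither of which passed. None of the 3 genes of 65E, of 67F or of 78C passed, while all 3 of 62B did, with Cpr62Bb the highest of them at 17.5 CPM per kb. The clusters on 2R were more often expressed, with 4 of 7 genes in 47E and 6 of 8 in 49A. By arm, 15 of 21 members on 2R passed, 12 of 35 on 3L, 3 of 5 on 3R, 1 of 4 on X and 0 of 5 on 2L.

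Some counts are uncertain because of how genes overlap or resemble each other. All 1488 exonic bases of Cpr57A are shared with Obp57d, an odorant-binding protein gene on the same strand. Both genes carried the same count in all 39 samples (477 to 1169), so their RNA cannot be told apart in this table. For Cpr65Au, 491 of 526 bases face the antisense RNA asRNA:CR46005, which itself had 6 to 36 counts against 5868 to 13684 for Cpr65Au. Cpr73D shares 294 of 3030 bases with Ogdh on the other strand, where Ogdh had 6984 to 24322 counts and Cpr73D 916 to 1538. The near-identical pairs Cpr65Ax1 and Cpr65Ax2, and Cpr67Fa1 and Cpr67Fa2, can exchange reads, and none of these 4 genes passed the filter.

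The first comparison asked how the family differed between chronic and acute feeding over all drugs. At an adjusted p under 0.05, 3 of the 31 expressed members changed: the lens gene Cpr66D rose, and Cpr76Bc and Cpr47Ee fell in chronic samples. That share is 9.68%, and 9.26% of the 11452 features tested passed the same threshold, so the family was called about as often as the rest of the transcriptome. By direction, 1 member and 3.4% of features rose, and 2 members and 5.86% of features fell. The median log2 fold change (chronic over acute) was 0.06 over the members and 0.01 over all features. At an unadjusted p under 0.05 the shares were 22.6% of members (7 of 31) and 22.2% of features. None of the 3 called genes reached a change of 1.5-fold. For 24 of the 31 members, the whole 95% interval of the fold change lay within 1.5-fold in either direction, and for 30 it lay within 2-fold. These p-values came from edgeR's quasi-likelihood method with drug as a covariate and Benjamini-Hochberg adjustment over all features. Nothing states that the pools came from separate cultures, so the p-values measure the spread between these pools.

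**Figure D3:**
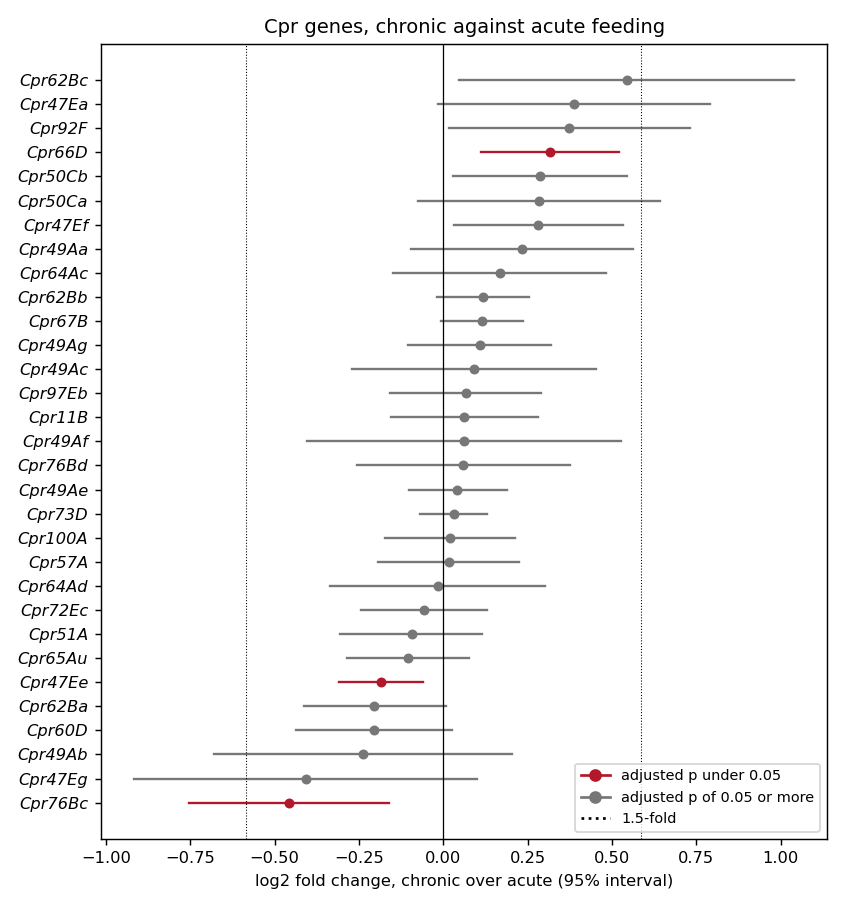
Log2 fold change of the 31 expressed Cpr genes, chronic over acute feeding with drug as a covariate, with 95% intervals; red marks an adjusted p under 0.05 and dotted lines mark 1.5-fold. Cpr66D is above 0 and Cpr47Ee and Cpr76Bc are below it, all 3 inside the dotted lines.

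Cpr76Bc, at 3L 19520945 to 19527272 on the plus strand, was lower in chronic samples. It averaged 2.26 ± 0.711 CPM in the 19 chronic samples and 3.11 ± 1.06 CPM in the 20 acute samples (SD). The chronic samples ran from 1.0 to 3.77 CPM with a median of 2.19, and the acute samples from 1.90 to 5.60 CPM with a median of 3.03. The ranges overlapped, and 16 of 19 chronic samples lay below the acute median. The log2 fold change was -0.46 (SE 0.146, adjusted p = 0.0405). The highest value, 5.60 CPM, was in acute DMSO replicate 5, and the lowest, 1.0 CPM, in chronic DMSO replicate 6.

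Cpr66D, the lens gene at 3L 8640439 to 8643584 on the plus strand, was higher in chronic samples. It averaged 1.97 ± 0.478 CPM in chronic samples and 1.57 ± 0.306 CPM in acute samples (SD, n = 19 and 20). Chronic samples ran from 1.27 to 3.0 CPM with a median of 1.91, against 1.21 to 2.31 CPM and a median of 1.52 in acute samples. The ranges overlapped, and 15 of 19 chronic samples lay above the acute median. The log2 fold change was 0.32 (SE 0.101, adjusted p = 0.0403). Counts behind these values were 31 to 84 per sample.

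Cpr47Ee, at 2R 11265126 to 11266856 on the plus strand, had the smallest of the called changes and the most counts, 498 to 1031 per sample. It averaged 26.1 ± 3.20 CPM in chronic samples and 29.6 ± 4.31 CPM in acute samples (SD, n = 19 and 20). Chronic samples ran from 18.5 to 33.8 CPM with a median of 26.0, and acute samples from 23.2 to 39.7 CPM with a median of 29.2. Again the ranges overlapped, with 16 of 19 chronic samples below the acute median. The log2 fold change was -0.19 (SE 0.061, adjusted p = 0.0488).

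These 3 calls lie near the threshold. With each sample left out in turn, 0 to 3 members were called. Cpr47Ee was called in 22 of the 39 fits (adjusted p 0.0268 to 0.0762), Cpr76Bc in 20 (0.0164 to 0.0713) and Cpr66D in 16 (0.0114 to 0.085), with each direction kept throughout. The calls also differed by method. Limma after cyclic LOESS called only Cpr66D (adjusted p = 0.0434) and gave 0.0755 for Cpr76Bc and 0.0566 for Cpr47Ee, while DESeq2 called all 3. Cpr66D missed the threshold in edgeR without the filter on low counts (adjusted p = 0.076) and with chronic DMSO replicate 7 included (0.0527).

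The genes with the highest levels differed little between schedules. Over the 10 highest members per length the log2 fold changes lay between -0.21 (Cpr60D) and 0.12 (Cpr62Bb), and the 95% interval of each lay within 1.5-fold. Of these 10, edgeR called 1, Cpr47Ee (adjusted p = 0.0488), described above. Cpr72Ec averaged 947 ± 214 CPM in chronic samples and 991 ± 223 CPM in acute samples, a log2 fold change of -0.06. Cpr65Au averaged 313 ± 37.1 CPM in chronic and 337 ± 90.5 CPM in acute samples (-0.11 on the log2 scale). Cpr67B averaged 208 ± 32.5 CPM in chronic and 193 ± 23.1 CPM in acute samples (0.12, adjusted p = 0.264), and Cpr49Ae 68.4 ± 10.3 and 66.1 ± 11.1 CPM (0.04). All are SD over 19 chronic and 20 acute samples. For Cpr72Ec, Cpr65Au, Cpr67B and Cpr49Ae the means differed by less than the SD of either schedule, which is not a test of the difference.

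Among the members that missed the threshold, Cpr62Bc had the largest estimate of any member. It averaged 5.40 ± 2.85 CPM in chronic samples and 3.78 ± 2.03 CPM in acute samples (log2 fold change 0.55, 95% interval 0.05 to 1.04, adjusted p = 0.175). Cpr47Ef averaged 6.40 ± 2.30 CPM in chronic and 5.25 ± 1.12 CPM in acute samples (0.28, adjusted p = 0.159). Without chronic DMSO replicate 4, which had 14.2 CPM, its log2 fold change was 0.15. Cpr50Cb (0.29, adjusted p = 0.165) and Cpr92F (0.37, adjusted p = 0.20) also leaned up in chronic samples. Cpr62Ba (-0.20), Cpr60D (-0.21) and Cpr47Eg (-0.41) leaned down, with adjusted p of 0.245 or more.

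Cpr62Bc varied more within groups than any other expressed member, with a within-group SD of 0.739 on the log2 scale. It ran from 2.13 to 9.24 CPM in chronic 2-AAPA (median 5.56), 1.97 to 7.47 in acute 2-AAPA (2.37), 2.52 to 8.03 in chronic MitoQ (7.34), 1.44 to 7.27 in acute MitoQ (2.83), 2.56 to 10.3 in chronic DMSO (3.19) and 2.37 to 7.29 in acute DMSO (4.53). The ranges of all 6 groups overlapped. Its neighbours in 62B varied far less, with within-group SDs of 0.203 for Cpr62Bb and 0.275 for Cpr62Ba.

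The schedules were then compared within each drug, in a model of the 6 groups. Within 2-AAPA, 2 of the 31 members were called (6.45%, against 4.92% of all features), 1 upward (1.13% of features) and 1 downward (3.8% of features). Limma after cyclic LOESS, which tested all 70 genes, called 0 (adjusted p = 0.0559 for Cpr76Bc and 0.0541 for Cpr50Cb) and had 10 at an unadjusted p under 0.05. DESeq2 called 3. In edgeR, 6 of the 31 had an estimate past 1.5-fold. Limma's 10, the DESeq2 calls and these 6 stand without the share of all features, so they are not read as a trait of the family. Cpr76Bc fell in chronic 2-AAPA samples, which ran from 1.75 to 2.63 CPM with a median of 2.07, against 2.37 to 5.24 CPM and a median of 3.74 in acute 2-AAPA samples. All but the lowest acute sample, at 2.37 CPM, lay above every chronic sample. The log2 fold change was -0.87 (SE 0.243, adjusted p = 0.0279).

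Cpr50Cb rose in chronic 2-AAPA samples. It ran from 0.635 to 1.51 CPM with a median of 1.11 in them, against 0.362 to 0.890 CPM and a median of 0.723 in acute 2-AAPA samples. Of the 7 chronic samples, only replicate 1, at 0.635 CPM, lay within the acute range. The log2 fold change was 0.71 (SE 0.213, adjusted p = 0.0444), from 9 to 48 counts a sample over all 39. Cpr66D followed with 0.54 (adjusted p = 0.0612). The 5 members at an unadjusted p under 0.05 are 16.1%, against 15.6% of features. Cpr50Cb missed the threshold without the filter on low counts (adjusted p = 0.0789) and with chronic DMSO replicate 7 included (0.0577). With each sample left out in turn, 0 to 3 members were called within 2-AAPA, Cpr76Bc in 34 of 39 fits (adjusted p 0.0081 to 0.0866) and Cpr50Cb in 20 (0.0185 to 0.143).

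**Figure D4:**
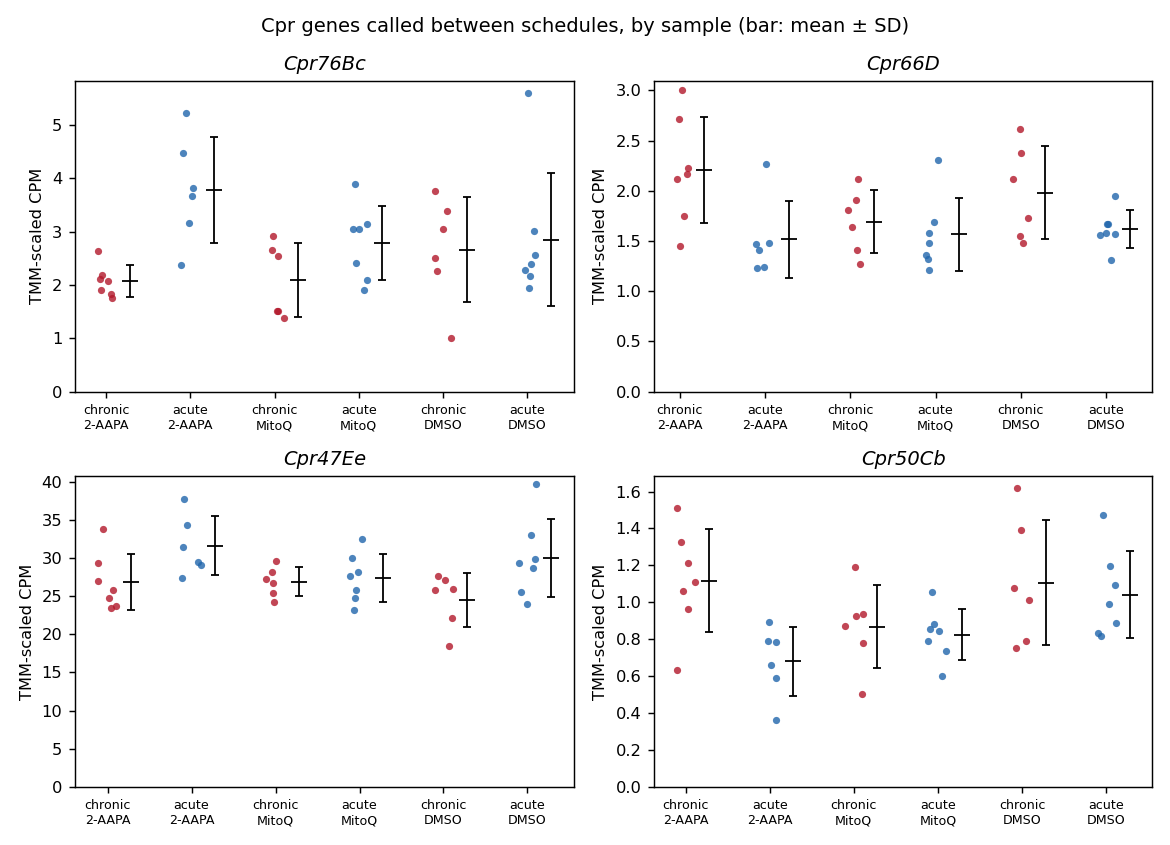
CPM of the 4 Cpr genes called between schedules over all drugs or within 2-AAPA, with 1 point per sample in the 6 groups (red chronic, blue acute) and the mean ± SD beside them. For Cpr76Bc the chronic 2-AAPA samples lie at 1.75 to 2.63 CPM and the acute 2-AAPA samples at 2.37 to 5.24 CPM. In the DMSO groups the chronic samples lie at 1.0 to 3.77 CPM and the acute samples at 1.95 to 5.60 CPM. In each case the ranges overlap.

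Within DMSO and within MitoQ no member was called, where 1.2% and 0.148% of all features were. At an unadjusted p under 0.05 there were 5 members within DMSO (16.1%, against 10.7% of features) and 0 within MitoQ (5.99% of features), and DESeq2 and limma also called 0 in each. For Cpr76Bc the log2 fold change was -0.09 within DMSO and -0.41 within MitoQ. For Cpr66D it was 0.29 within DMSO and 0.12 within MitoQ, for Cpr47Ee -0.29 within DMSO and -0.03 within MitoQ, and for Cpr50Cb 0.10 within DMSO and 0.08 within MitoQ. The 3 schedule comparisons share no samples. A difference among drugs in the effect of schedule was tested as an interaction, and no member was called at an adjusted p under 0.05, nor any feature (0%), by edgeR's quasi-likelihood test. No member had an unadjusted p under 0.05 there, against 405 features (3.54%), and DESeq2 and limma called 0 members. The smallest p was that of Cpr50Cb (0.0681, adjusted p = 1). The stronger calls within 2-AAPA are therefore not shown to differ from the other drugs.

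The drugs were compared with DMSO next. In the test of drug with schedule as a covariate, 0 of 31 members and 0% of features were called by edgeR, and DESeq2 and limma also called 0 members. At an unadjusted p under 0.05 there were 3 members, Cpr49Af, Cpr49Aa and Cpr11B, and 586 features (5.12%). Each drug was also set against DMSO within its schedule, and no member was called in any of these 4 comparisons by edgeR, DESeq2 or limma. Of all features, 0% were called for chronic 2-AAPA, 0.0262% for acute 2-AAPA, 0% for chronic MitoQ and 0% for acute MitoQ. At an unadjusted p under 0.05 the members numbered 0, 3, 0 and 2 in the same order, against 5.42%, 6.15%, 2.93% and 1.91% of features.

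**Figure D5:**
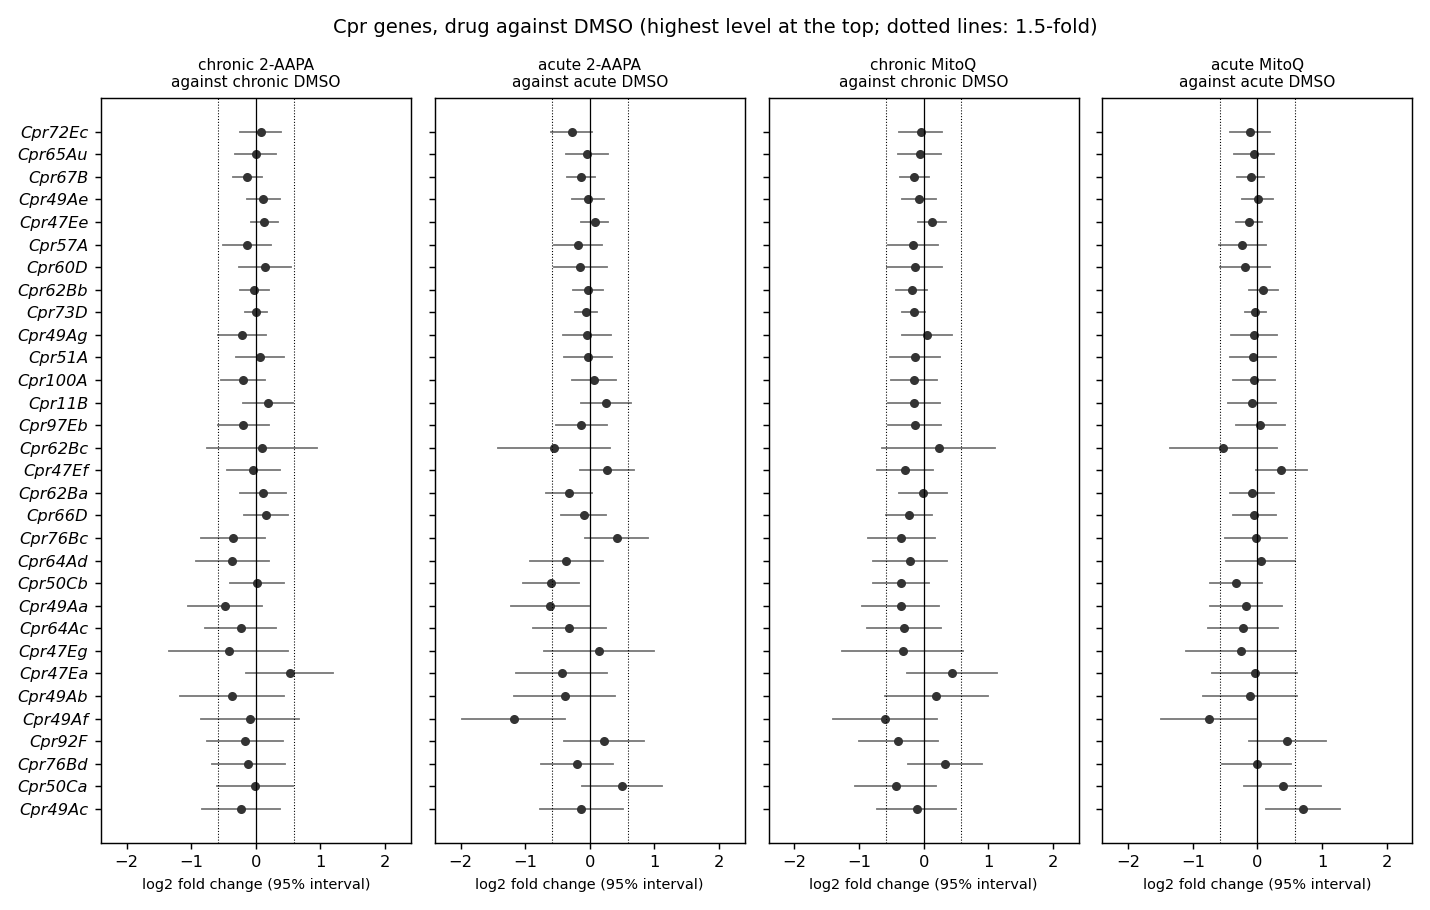
Log2 fold changes of the 31 expressed Cpr genes with 95% intervals, for each drug against DMSO in chronic and in acute samples, with genes ordered by level and dotted lines at 1.5-fold. No gene was called in any panel, and the intervals widen toward the genes of low level at the bottom.

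How small the drug differences could be depended on level. For the 10 highest members per length, the 95% interval lay within 1.5-fold for 9 in chronic 2-AAPA, 9 in acute 2-AAPA, 10 in chronic MitoQ and 9 in acute MitoQ. Over all 31 it did so for 16, 13, 16 and 18. The estimates of the 10 highest genes lay between -0.28 and 0.14 on the log2 scale over the 4 comparisons. For many of the rest the interval reached past 1.5-fold, so changes of that size are not excluded. The median of the members lay below 0 in all 4 comparisons (-0.04, -0.13, -0.14 and -0.06, against 0.02, 0.01, -0.01 and -0.01 over all features). Those with 1 schedule share their DMSO samples. These DMSO samples include acute DMSO replicate 5 and chronic DMSO replicate 4, which held many of the extreme values, as given below. Their part in the medians was not tested.

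The smallest p of any drug comparison was that of Cpr49Af in acute 2-AAPA. It ran from 0.0734 to 0.336 CPM with a median of 0.249 in acute 2-AAPA samples, against 0.166 to 1.48 CPM and a median of 0.400 in acute DMSO samples (log2 fold change -1.18, SE 0.393, adjusted p = 0.489). The groups overlapped, and the value of 1.48 CPM came from acute DMSO replicate 5. Without that sample the log2 fold change was -0.75. In acute MitoQ the smallest p was that of Cpr49Ac, at 0.273 to 0.623 CPM in acute MitoQ samples against 0.171 to 0.327 CPM in acute DMSO samples (0.71, SE 0.284, adjusted p = 0.999). It had 1 to 17 counts a sample over all groups. In chronic 2-AAPA it was Cpr49Aa, at 0.204 to 0.775 CPM against 0.312 to 1.52 CPM in chronic DMSO (-0.48, adjusted p = 0.76). Without chronic DMSO replicate 4, which held the highest of these values, its log2 fold change was -0.18. In chronic MitoQ it was Cpr73D, at 40.9 to 52.4 CPM against 47.0 to 58.7 CPM in chronic DMSO (-0.15, adjusted p = 1).

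Other genes of the cuticle were read from lists, whose counts stand beside the 9.26% of all features called between schedules, 3.4% higher and 5.86% lower in chronic samples. Of 28 genes that carry the same domain under other names, such as the Lcp and Ccp84 genes, 11 were tested and 0 were called between schedules by edgeR (4 at an unadjusted p under 0.05). The highest of them was Lcp65Ag2 at 43.7 CPM per kb. Of 26 Tweedle genes, which encode another family of cuticle proteins, 6 were tested and 0 called (1 at an unadjusted p under 0.05), with TwdlT the highest at 10.2 CPM per kb. Of 11 tested cuticle and lens genes outside both families, 2 rose in chronic samples, where 3.4% of all features did, Gasp, which encodes a chitin-binding protein (0.32, SE 0.083, adjusted p = 0.00801), and Vajk2 (0.32, SE 0.099, adjusted p = 0.0363).

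Of 24 tested genes of chitin metabolism and the related chitinase-like growth factors, 5 fell in chronic samples and 0 rose, where 5.86% of all features fell and 3.4% rose. They were Idgf1, Idgf2, Idgf5 and Idgf6, which encode imaginal disc growth factors, and the chitinase-like gene Cht11, with log2 fold changes from -0.54 (Idgf5) to -0.15 (Cht11). The median of the list was -0.02, against 0.01 over all features. Of 14 tested tanning and pigment genes, 3 fell and 0 rose, against the same shares of features. All 3 are of the yellow family: yellow-f2 (-0.43), yellow-e (-0.35) and yellow-f (-0.34). The median of the list went the other way, at 0.05. The tanning enzymes Ddc, ple and e were not among the called genes. Of 13 tested genes of the ecdysone response, which times cuticle synthesis at the moults, only the nuclear receptor gene Hr38 rose (0.78, SE 0.166, adjusted p = 0.00138). No gene of these lists was called in any of the 4 comparisons of a drug with DMSO.

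Some markers of other tissues also differed between schedules. Of all features, 9.26% were called, 3.4% higher and 5.86% lower in chronic samples. Of 4 tested fat body markers, 2 were lower in chronic samples, Lsp2 (-1.83, adjusted p = 1.36e-05) and Ilp6 (-0.21), and the summed level ran from 466 to 4553 CPM in chronic and 1313 to 6795 CPM in acute samples. Of 4 tested muscle markers, 2 were higher, Act79B (0.70) and Mhc (0.19), with sums of 1294 to 2130 CPM in chronic and 873 to 1572 CPM in acute samples. Of 5 hemocyte markers, 2 were lower, srp (-0.31) and NimC1 (-0.43), with sums of 179 to 274 CPM in chronic and 201 to 304 CPM in acute samples. Of 4 tested larval markers, Lsp1alpha (-2.19) and Lsp1beta (-0.61) were lower, with sums of 137 to 631 CPM in chronic and 119 to 708 CPM in acute samples. Of 6 photoreceptor markers inaD was higher (0.20), and of 5 neuronal markers 0 were called (2 at an unadjusted p under 0.05). Median log2 fold changes were -0.165 for fat body, 0.302 for muscle, -0.284 for hemocyte and -0.59 for larval markers. They were 0.034 for photoreceptor and 0.18 for neuronal markers, against 0.011 over all features. The part of tissue content in the differences of the Cpr genes was not tested.

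Among the 39 samples, 2 held many of the extreme values. Acute DMSO replicate 5 had the highest value of all 39 samples for 13 of the 31 members, and chronic DMSO replicate 4 for 7. The share of all features that peaked in these samples was not counted, so this is not read as a trait of the family. In chronic DMSO replicate 4 the muscle markers summed to 2130 CPM, the highest of the 39, and the fat body markers to 466 CPM, the lowest. In acute DMSO replicate 5 the muscle markers summed to 873 CPM, the lowest of the 39. Without acute DMSO replicate 5 no member was called between schedules over all drugs, and without chronic DMSO replicate 4, 2 were.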

How the data were processed

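The authors trimmed reads, aligned them with nf-core RNA-seq 3.10.1, using BDGP6 and keeping reads with up to 500 locations, and counted genes with featureCounts and transposable elements with TEcount. The deposited values are raw counts for 17784 features in 40 samples, and the strand setting and the treatment of reads on several features are not given in the sources used here. The library kit was directional.

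Groups came from the sample labels. Chronic DMSO replicate 7 was left out of all main fits. Features were kept by filterByExpr on the 6 groups (minimum count 10, minimum total 15), which left 11452. edgeR 4.0.16 in R 4.3.3 was used with TMM factors and robust glmQLFit. Schedule and drug were tested in an additive model, and the arms, the 4 comparisons with DMSO and the interaction in a model of the 6 groups, all with a threshold of 0.05 on the adjusted p. The common biological coefficient of variation was 0.224. Standard errors are the log2 fold change divided by the square root of F. No sample's counts were identical to another's. Total counts were 24318573 to 30104079 per sample, and expressed members with a median under 1 CPM had at most 48 counts a sample.

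Exon lengths were those of the table, equal for all 70 members to the exon union of the Ensembl BDGP6.54 annotation, from which positions and overlaps were taken. Named genes are the called members, the 10 highest per length, the 5 smallest p of each direction between schedules, the smallest p of each drug and interaction test, and the lens genes. Cpr11A, Cpr97Ea, Cpr11B, the neighbours within clusters and the genes given for replicate 7 are outside this rule and were named after their values were seen. Members, gene lists and tests were chosen with earlier results of these data known. Alternatives were DESeq2 1.42.0, limma 3.58.1 on log2(count + 2) after cyclic LOESS, DESeq2 size factors, no filter, a replicate block, a 1.5-fold minimum, replicate 7 included, and each sample left out. The test scripts were tested on simulated data.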

Additional observations from a re-analysis of the deposited data

Results flagged for a closer look

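Within each group of 6 or 7 samples, Dixon's criterion at 95% was applied to log2(CPM + 0.25). A sample was singled out where its gap to the nearest other sample was large for the range of its group. Over 21 named genes and 126 groups this singled out 15 values, where chance gives about 6.3, and several fell on the same sample. Acute DMSO replicate 5 was the highest of its 7 samples for Cpr76Bc (5.60 CPM), Cpr60D (30.7 CPM), Cpr72Ec (1841 CPM) and Cpr57A (57.0 CPM). Acute 2-AAPA replicate 1 was the highest of 6 for Cpr66D (2.26 CPM), Cpr65Au (507.6 CPM) and Cpr57A (43.4 CPM), and acute 2-AAPA replicate 5 for Cpr62Bc (7.47 CPM). Chronic DMSO replicate 4 was the highest of 6 for Cpr47Ef (14.2 CPM) and Cpr73D (58.7 CPM), chronic MitoQ replicate 6 for Cpr47Ef (7.50 CPM), and chronic 2-AAPA replicate 5 the highest of 7 for Cpr72Ec (1663 CPM). The lowest samples were chronic 2-AAPA replicate 7 for Cpr49Ac (0.0407 CPM), chronic 2-AAPA replicate 1 for Cpr62Bb (13.1 CPM) and acute MitoQ replicate 6 for Cpr47Eg (0 CPM, a listed count of 0).

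Chronic DMSO replicate 7, left out of the main comparisons, held 7 Cpr genes at more than 3-fold their highest value in any of the other 39 samples. They were Cpr67Fb (4.69 CPM, against at most 0.308), Cpr66Cb (1.53, against 0.179), Cpr56F (3.27, against 0.448), Cpr49Ab (5.42, against 0.900), Cpr31A (0.800, against 0.166), Cpr92A (0.545, against 0.169) and Cpr78Cc (0.364, against 0.117), all in CPM. In that pool 11 of 70 Cpr genes (15.7%) were higher than in any other sample, and 27.2% of all features with a count were. The share of all features at more than 3-fold was not counted, so the 7 genes are not read as a trait of the family. It also held markers of accessory gland (651 CPM), testis (996 CPM) and gut (196 CPM). Their part in the Cpr values was not tested.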

How the results depend on the processing

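With chronic DMSO replicate 7 included, 2 members were called between schedules over all drugs, 2 within DMSO (Cpr47Ee and Cpr92F) and 1 within 2-AAPA. Cpr92F was at 1.71 CPM in that replicate, against at most 0.9055 CPM in the other 39 samples. With limma after cyclic LOESS 1 was called over all drugs (Cpr66D) and 0 within 2-AAPA. With a replicate block 1 was called within 2-AAPA and 2 over all drugs. The numbers do not pair the samples: 34 of 93 same-numbered pairs correlated above 0.1 (median -0.03), and 7 of 39 samples correlated best with their own number. With a 1.5-fold minimum 0 were called over all drugs, and with a median of at least 1 CPM as the criterion 20 genes counted as expressed. Without the filter 4 members were called over all drugs. That fit also tested the 39 members that did not pass, which had at most 28 counts a sample. Cpr66D was not among the 4, so they include members that the main fit did not call. DESeq2 called 3 over all drugs and 3 within 2-AAPA. The schedule estimate of Cpr57A, near 0 at 0.02, was -0.005 with replicate 7 included, and -0.039 to 0.078 with each sample left out. The cause was not tested in these cases. Counts of called members under these alternatives stand without the share of all features called, so they are not read as a trait of the family.

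With each sample left out, 0 to 3 members were called over all drugs. None was called without acute DMSO replicate 5, acute MitoQ replicate 6, chronic DMSO replicate 6, chronic 2-AAPA replicate 1 or 2, or chronic MitoQ replicate 1, and 1 without acute 2-AAPA replicates 2, 3, 4 or 5, acute MitoQ replicates 1, 4 or 7, chronic 2-AAPA replicates 3, 5, 6 or 7, or chronic MitoQ replicate 3. Within 2-AAPA it was also 0 to 3, with none called without acute 2-AAPA replicate 2 or 5 or chronic 2-AAPA replicate 3 or 6, and 1 in 15 other fits. In every other comparison 0 members were called in each of the 39 fits. These counts also stand without the share of all features called in each fit. For the expressed genes with a median under 1 CPM, the intervals mostly reached past 1.5-fold in the comparisons of a drug with DMSO. The part of depth and of the spread between pools in this was not tested.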
